A study of Mus musculus with 32 samples.

Results

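Cytosolic ribosomal proteins are the protein components of the ribosomes that translate nuclear genes, and their mRNAs were followed here through 14 days of differentiation of a cochlear cell line. Members were the probe sets with exactly 1 gene symbol in the platform annotation, where that symbol was Rplp0, Rplp1, Rplp2 or Rpsa, or began with Rpl or Rps and a digit. Kinases of the Rps6k family and the mitochondrial Mrpl and Mrps genes were left out. This gave 60 probe sets (42 on array design a and 18 on design b) for 46 gene symbols, out of 13057 probe sets that were no controls. The probe sets with 1 symbol named 6137 genes in all.

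The cells were UB/OC-1, a single conditionally immortal mouse line made from the embryonic organ of Corti, which holds the hair cells of hearing. Such lines carry a temperature-sensitive T antigen in every group, which keeps cells dividing at 33 °C and is inactivated at 39 °C. There were 32 arrays, as the same days were read on both designs with 16 arrays each. The longer experiment, A, ran over 12 days, daily up to day 9 and then on days 11 and 14. Its replica, experiment B, sampled 4 of them, namely days 0, 2, 4 and 9. Cells of day 0 grew at 33 °C and cells of all later days at 39 °C, with no other agent or genotype named. For the tests, the arrays of each design were grouped into 4 phases. Day 0 had 2 arrays, the early phase up to day 3 had 4, the middle phase from day 4 to day 7 had 5, and the late phase from day 8 on had 5. Nothing in the labels says that the days of an experiment were separate cultures, so p-values reflect the spread of these samples alone, which may be technical.

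A ribosome has a small subunit, which reads the mRNA, and a large subunit, which joins the amino acids. Each needs its ribosomal proteins in matching amounts, and dividing cells make many of them. Ribosomal protein mRNAs typically begin with a run of pyrimidines called a TOP motif, through which the mTOR pathway controls their translation, so a level of mRNA is not a level of synthesis.

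Of the 46 symbols, 36 had a promoter in the RefSeq table (mouse build GRCm38.p6), with 44 promoters in all. The stretches printed here run from 60 bases before the annotated start to 20 bases from it on, 5′ to 3′ on the gene's strand. Capitals mark the longest run of C and T within 20 bases of the start, or the first of equal length, with runs cut at that distance. They are shown because a TOP motif would lie there. The first 5 belong to genes that were lower in the late days, and the other 4 to genes that did not pass (log2 changes of -0.06 for Rps28, 0.21 for Rps12 and 0.31 for Rpl41; Rplp0 is described with the stalk). All 9 were chosen after their values were seen.
Rpl12 (chr2:32961652-32961731, plus strand): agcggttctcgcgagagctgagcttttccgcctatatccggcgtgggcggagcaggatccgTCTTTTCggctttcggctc
Rps26 (chr10:128626487-128626566, minus strand): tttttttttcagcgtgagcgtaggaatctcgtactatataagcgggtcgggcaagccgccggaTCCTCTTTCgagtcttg
Rpl7a (chr2:26910747-26910826, plus strand): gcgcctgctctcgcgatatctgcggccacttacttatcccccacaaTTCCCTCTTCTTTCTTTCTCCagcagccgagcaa
Rpl13a (chr7:45128726-45128805, minus strand): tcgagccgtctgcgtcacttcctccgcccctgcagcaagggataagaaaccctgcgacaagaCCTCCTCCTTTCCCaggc
Rpl22l1 (chr3:28805448-28805527, plus strand): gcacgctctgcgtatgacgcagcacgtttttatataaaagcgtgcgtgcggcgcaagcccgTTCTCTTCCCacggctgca
Rplp0 (chr5:115559407-115559486, plus strand): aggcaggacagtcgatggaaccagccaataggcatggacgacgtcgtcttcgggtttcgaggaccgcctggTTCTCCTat
Rps28 (chr17:33824543-33824622, minus strand): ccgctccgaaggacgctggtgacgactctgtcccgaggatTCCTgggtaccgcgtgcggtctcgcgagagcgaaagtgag
Rpl41 (chr10:128549149-128549228, minus strand): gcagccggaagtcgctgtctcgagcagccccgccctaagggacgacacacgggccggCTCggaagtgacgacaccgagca
Rps12 (chr10:23787190-23787269, minus strand): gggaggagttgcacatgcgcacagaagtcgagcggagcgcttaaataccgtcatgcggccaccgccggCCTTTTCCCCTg

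The run was 21 bases long in Rpl7a, 14 in Rpl13a, 11 in Rps12, 10 in Rpl22l1, 9 in Rps26, and 7 in both Rpl12 and Rplp0. It was 4 bases long in Rps28 and 3 in Rpl41. The run marked in Rps28 was cut at its far end by the limit of 20 bases, and a second run of the same length, left in lower case, spans the start itself. A run of at least 8 pyrimidines within 20 bases of the start was present in 43.2% of the 44 member promoters, against 16.05% of all 32851 promoters in the table. The other motifs were searched on both strands over the whole window of 250 bases before to 50 after the start. CCGGAAG, a core bound by ETS factors, was found in 29.5% of member promoters and 8.86% of all. AAGATGGC, bound by YY1, was in 6.82% against 2.75%, TGACGTCA, the CRE, in 2.27% against 1.79%, and TATAAA, the TATA box, in 13.6% of both. CTTTCC, a pyrimidine hexamer that can overlap the run at the start, was in 38.6% against 26.6%. These are matches of letters and say nothing of binding in these cells.

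Intensities were linear, with a trimmed mean of 300.4 to 300.8 on every array, so each level is relative to the other transcripts of its array. A change shared by all transcripts would not show, and fewer cells with a transcript cannot be told apart from less of it per cell. Values below a floor (141 on design a, 198 on design b) were set to it, and tests were made on probe sets that exceeded it on 2 or more of their 16 arrays. These were 52 of the 60 members (35 of the large and 17 of the small subunit, 41 symbols) among 7726 probe sets in all. The 8 others were below the floor on every array, namely 1 probe set each of Rpl10a, Rpl27, Rpl32, Rpl39l, Rpl7, Rps4l, Rps7 and Rpsa. Of the 52 tested, 39 had names ending in f_at, which marks sequence shared within a gene family. Ribosomal protein genes have many processed copies, so the transcript that such a probe set reports is uncertain. RefSeq lists Rps4l as a transcribed pseudogene, and the symbol Rpl32-ps denotes one as well. Rpl32-ps was above the floor on 2 arrays and Rpl4 on 5.

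The experiments differed in array brightness. The brightest probe set of an array reached 7985 to 13801 on design a in experiment B and 19170 to 63467 in experiment A, and on design b 9144 to 12592 and 16484 to 55674. The ratio of 3′ to 5′ signal of the Gapdh control, a measure of RNA integrity, was 0.759 to 0.889 in experiment B and 0.994 to 2.65 in experiment A. Of 18 otic genes 11 were on the arrays, and Gata3, Myo6, Myo7a and Pax2 were above the floor on 8 or more arrays, while Atoh1, Sox2, Fgfr3 and Gfi1 never were. Experiment B supplied 1 of the 2 arrays of day 0 but 1 of 4 or 5 in the later groups. Samples are paired by experiment, so results with it as a block in the model are given where they change a member's call or move a count by over 1.5 times.

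The median level of the members on design a was lower in the later days than at day 0, and that on design b differed between the experiments. On design a, the median log2 difference of the 36 members from day 0 of the same experiment was -0.08 at day 1, -0.20 at day 2 and -0.44 at day 3 in experiment A. It was -0.55 at day 4, -0.67 at day 5, -0.60 at day 6, -0.79 at day 8, -0.73 at day 9, -1.03 at day 11 and -0.95 at day 14, so it did not fall at every step. In experiment B the same median was -0.02 at day 2, -0.55 at day 4 and -0.45 at day 9. On design b, the 16 members had medians between -0.68 and -0.16 in experiment A but 0.37, -0.01 and -0.03 at days 2, 4 and 9 of experiment B. The median of all tested probe sets, measured the same way, lay between 0 and 0.09 on every array. Probe sets at the floor on both arrays have a difference of exactly 0, which holds this median near 0. Most members were far above the floor, so it is a limited baseline for them. In the deposited values, members on design a were thus lower in both experiments from day 4 on, and those on design b in experiment A alone. The latter depends on the scaling. With quantile normalization the design b median of experiment B was 0.05 at day 2, -0.14 at day 4 and -0.46 at day 9, with 13 of 16 members below 0 at day 9. With median scaling it stayed near the deposited values, at 0.38, -0.05 and -0.10, with 10 of 16 below 0 at day 9.

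**Figure D1:**
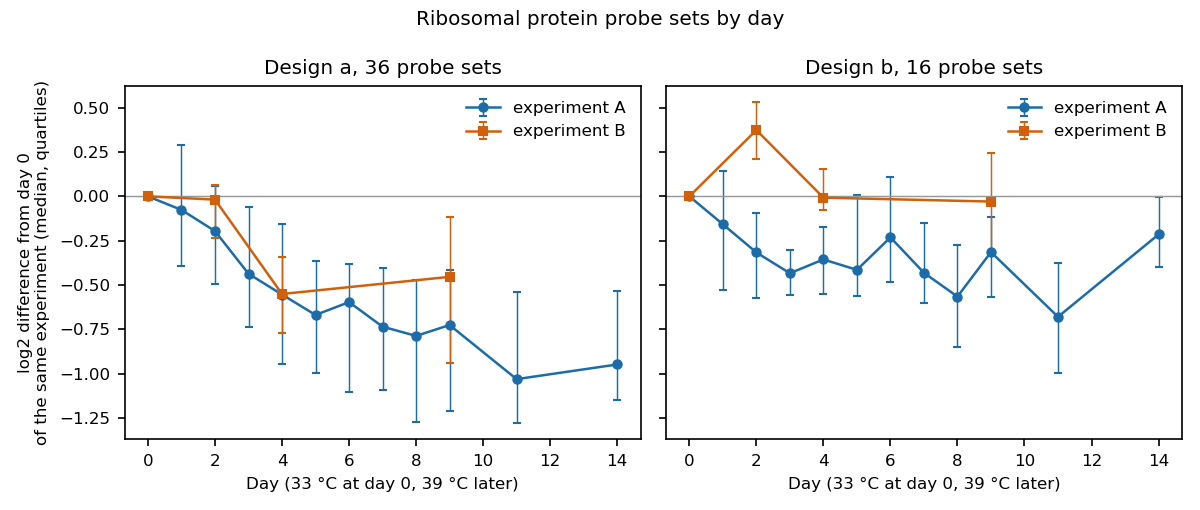
Median log2 difference of ribosomal protein probe sets from day 0 of the same experiment against the day, for design a (36 probe sets, left) and design b (16, right). Points are medians over probe sets on 1 array, bars run from the lower to the upper quartile, and experiment A reaches -1.03 at day 11 on design a while experiment B is at -0.01 and -0.03 at days 4 and 9 on design b.

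The first comparison, early against day 0, covers the first 3 days at 39 °C. None of the 52 members passed an adjusted p of 0.05 (limma) in either direction, against 3.49% of all tested probe sets (2.05% as lower). At an unadjusted p under 0.05 there were 3, all lower, beside 1009 of all 7726 tested probe sets (591 lower), and none was called with the block or the brightness covariate either. The median log2 change was -0.10, with 31 of 52 below 0, beside 0.05 for all tested probe sets. The changes of largest size were those of Rpl8 (-0.79 ± 0.34, SE, adjusted p = 0.298) and of both probe sets of Rpl36, at -0.74 ± 0.29 (adjusted p = 0.213) on design b and -0.65 ± 0.34 (adjusted p = 0.462) on design a. Rpl8 encodes a protein near the catalytic centre of the large subunit, and Rpl36 another protein of that subunit. All early arrays were below both day 0 arrays in 5 members, against 8.56% of all tested probe sets. Without day 0 of experiment A the median was 0.17.

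In the middle days, 4 members were lower than at day 0 and none was higher (4.58% of all tested probe sets were lower and 8.19% changed). The median change was -0.32, and 44 of 52 were below 0, whereas the median of all tested probe sets was 0.08. The members' median was -0.048 without day 0 of experiment A and -0.56 without that of experiment B. Rpl29, a large-subunit protein also known for binding heparan sulfate, fell by 1.22 ± 0.23 on the log2 scale (2.33-fold, adjusted p = 0.00161). Rpl12, at the base of the stalk where elongation factors bind, fell by 1.21 ± 0.25 (2.32-fold, adjusted p = 0.00332). Rpl8 fell by 1.18 ± 0.33 (2.27-fold, adjusted p = 0.0313) and Rpsa by 1.11 ± 0.33 (2.16-fold, adjusted p = 0.0465). Rpl29 kept its call in all 16 fits that left out 1 array. The call of Rpl12 was lost without day 0 of experiment B (adjusted p = 0.0826), that of Rpl8 in 5 fits (up to 0.205) and that of Rpsa in 11 (up to 0.312). With experiment as a block, 8 members were lower (background 6.42%), all 4 included, which added Rps18, Rpl7a, Rpl10a and a second probe set of Rpsa.

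Rpsa is a small-subunit protein that is also found at the cell surface as a laminin receptor, and its 3 tested probe sets differed. The probe set AA048123_f_at read 3862 in experiment A and 4548 in experiment B at day 0. It read 1970, 2224, 1768 and 1790 at days 4 to 7 of experiment A and 2000 at day 4 of experiment B, so the groups did not overlap. Probe set C78471_rc_f_at read 13530 and 7864 at day 0 and 6928, 5403, 7519, 5986 and 3386 in the middle days, also without overlap. It changed by -0.87 ± 0.31, which missed the threshold (adjusted p = 0.0939), but with the experiment as a block it passed (-1.07, adjusted p = 0.00145). Probe set j02870_s_at lay near the floor, at 283 and 318 at day 0 and 125 to 440 in the middle days. Its change was -0.03 ± 0.57, and its sign turned under 4 other settings and in 3 fits without 1 array, given with the processing alternatives. Late against day 0, none of the 3 passed (-0.99, -0.91 and 0.05; adjusted p = 0.069, 0.0666 and 0.991), and with the block the first pair did (adjusted p = 0.0477 and 0.000882).

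Late against day 0, 10 members of 9 genes were lower and none was higher, where 6.08% of all tested probe sets were lower and 10.9% changed. The median change was -0.47, with 41 of 52 below 0, beside 0.11 for all tested probe sets. It was -0.17 for the members without day 0 of experiment A and -0.73 without that of experiment B. Of the large subunit 9 of 35 passed, with a median of -0.52, and of the small subunit 1 of 17, with a median of -0.32, a difference that was not tested. By design, 9 of 36 passed on design a (median -0.63; background 6.29%) and 1 of 16 on design b (median -0.12; background 5.83%). All 5 late arrays were below both day 0 arrays in 19 of the 52 members, 17 of them on design a, against 10.4% of all tested probe sets. Apart from Rpl13a, the called members were f_at probe sets, and none of the 3 tested members with a plain probe set name passed. Those 3 were Rpl10, Rpl32-ps, which was above the floor on 2 arrays, and 1 probe set of Rps27l, which never read above 443. They are too few and mostly too near the floor to serve as a check on the f_at probe sets. Without day 0 of experiment B 4 members were lower, and without its day 9 there were 12. With experiment as a block 17 were lower (background 7.64%), which included all of the 10. The 7 added were Rps18, Rpl19, Rpl32l, Rpl23a, 1 probe set of Rpl28 and the brighter pair of Rpsa probe sets, which are named here after their values were seen.

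**Figure D2:**
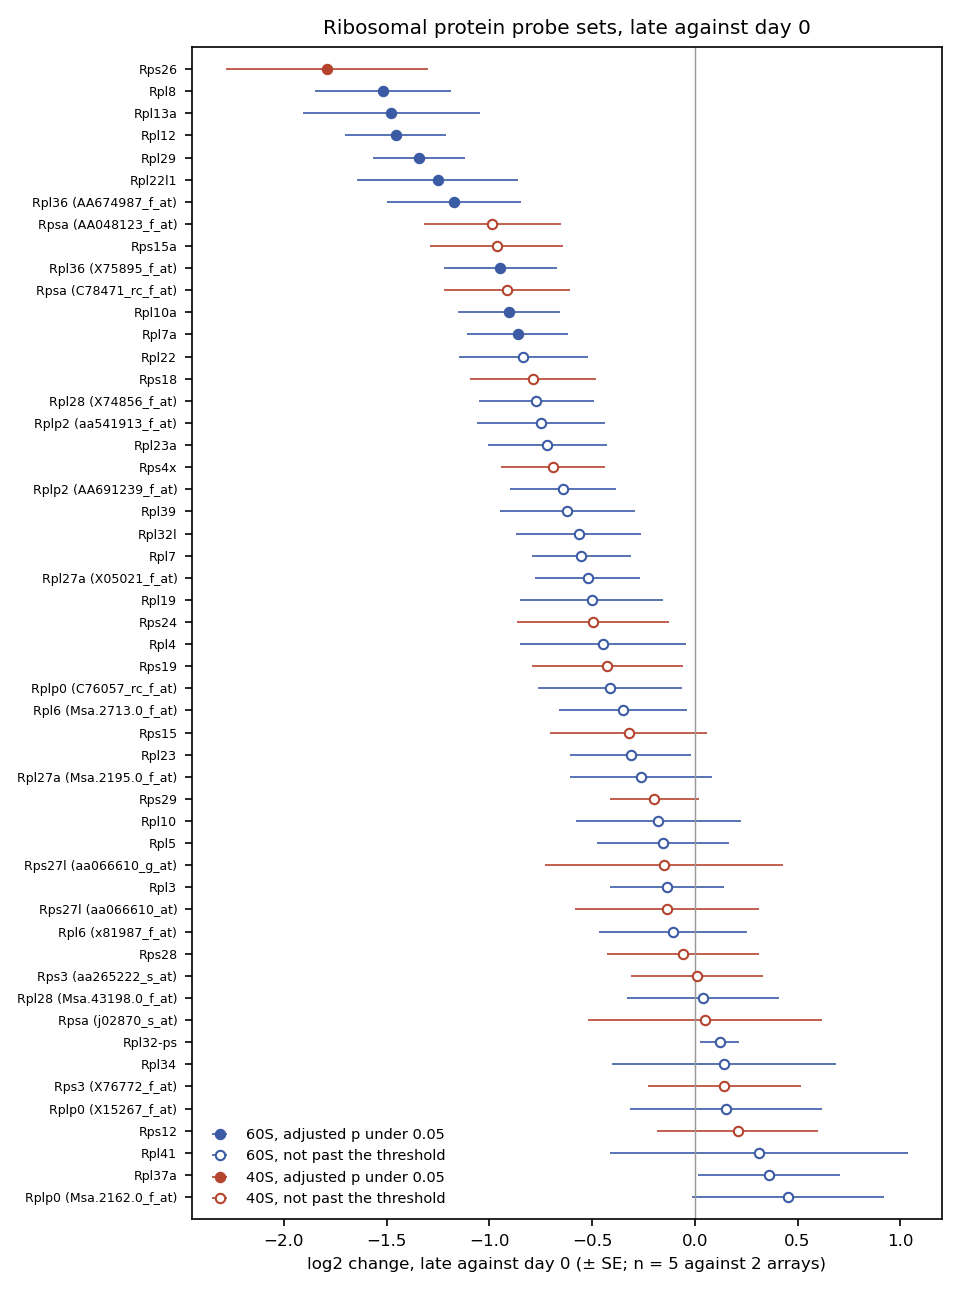
Log2 change late (days 8 to 14, n = 5 arrays) against day 0 (n = 2) for each of the 52 tested ribosomal protein probe sets, with bars of 1 standard error, blue for the large (60S) and red for the small (40S) subunit. Filled points passed an adjusted p of 0.05, and all 10 of them lie to the left of 0, between -1.79 for Rps26 and -0.86 for Rpl7a.

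Proteins at both stalks of the large subunit were among those that fell. Rpl12 read 5927 and 7563 at day 0 in experiments A and B. It read 2015, 2440, 2406 and 2376 at days 8, 9, 11 and 14 of experiment A and 3078 at day 9 of experiment B, so every late array was below both arrays of day 0. The log2 change was -1.46 ± 0.25 (2.74-fold lower, adjusted p = 0.00071), and it passed in all 16 fits that left out 1 array. Rpl10a, the protein of the L1 stalk, where used tRNA leaves, read 6216 and 4954 at day 0, and then 4317, 3067, 2564, 2272 and 2982, again without overlap. It fell by 0.90 ± 0.25 (1.87-fold, adjusted p = 0.0232). Its call was lost when day 0 was left out of experiment A (adjusted p = 0.179) or B (0.0654), or day 14 out of A (0.0519).

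The other stalk proteins did not pass. Rplp2, an acidic protein at the tip of the stalk, had 2 tested probe sets, with changes of -0.64 ± 0.26 (adjusted p = 0.132) and -0.75 ± 0.31 (adjusted p = 0.15). Rplp0, which anchors the stalk, had 3, with -0.41 ± 0.35 on design a (adjusted p = 0.539) and 0.45 ± 0.47 and 0.15 ± 0.47 on design b (adjusted p = 0.62 and 0.89). On design b the first of these probe sets read 18169 at day 0 of experiment A and 5915 at day 0 of experiment B. Its late values were 14852, 17089, 14439 and 18170 in experiment A and 8649 in experiment B. The experiments lay further apart in this probe set than the days did.

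Among the other large-subunit proteins, Rpl29 had the smallest adjusted p. It read 5735 and 4831 at day 0, then 4373, 2771 and 3163 at days 1 to 3 of experiment A and 3378 at day 2 of experiment B. Late it read 2271, 2363, 1871 and 1837 in experiment A and 2094 in experiment B. The groups did not overlap, and the late change of -1.34 ± 0.23 (2.53-fold, adjusted p = 0.000698) passed in all 16 fits that left out 1 array. Rpl8 read 6375 and 6757 at day 0 and 1508, 2767, 2068, 2352 and 3113 late, also without overlap. It fell by 1.52 ± 0.33 (2.86-fold, adjusted p = 0.00504), and of those 16 fits only that without day 0 of experiment B lost the call (adjusted p = 0.0635).

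Rpl13a, which can leave the ribosome after interferon to silence inflammatory mRNAs, read 1011 and 1405 at day 0 and 685, 467, 415, 209 and 519 late. It fell by 1.48 ± 0.43 (2.78-fold, adjusted p = 0.0322), and the lowest array was day 14. Rpl7a, another large-subunit protein, read 8906 and 5534 at day 0 and 3202, 4592, 3752, 4235 and 3669 late, a change of -0.86 ± 0.25 (1.82-fold, adjusted p = 0.0284). Neither gene had overlapping groups. The call of Rpl7a was lost without day 0 of experiment A (adjusted p = 0.327). That of Rpl13a was lost without either day 0 array (0.0724 for A and 0.312 for B), without day 11 (0.0543) and without day 14 (0.0611).

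Rpl36 fell on both designs. On design a it read 2237 and 3654 at day 0 and 1254, 1471, 951, 1148 and 1630 late (-1.17 ± 0.33, 2.25-fold, adjusted p = 0.025). On design b it read 3045 and 4455, then 1623, 1905, 1653, 2351 and 2117 (-0.95 ± 0.28, 1.93-fold, adjusted p = 0.0319). The late arrays lay below day 0 on either design. Leaving out day 0 of experiment B ended both calls (adjusted p = 0.39 and 0.427), as did leaving out day 11 (0.0531 and 0.0588). The call on design b also ended without day 8 (0.0651) or day 9 (0.0567) of experiment A.

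Rpl22l1, a paralog of the large-subunit protein Rpl22, read 1242 in experiment A and 3026 in experiment B at day 0. Late it read 596, 1186, 601 and 582 in experiment A and 1455 in experiment B, so the groups overlapped across experiments but not within either. Of the 10 calls its change of -1.25 ± 0.39 (2.38-fold, adjusted p = 0.0466) was the nearest to the threshold, and 11 of 16 fits without 1 array lost it (adjusted p up to 0.698, with a change of -0.61, without day 0 of experiment B). Rpl22 itself was at -0.83 ± 0.31 (adjusted p = 0.102).

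Rps26, which lines the channel where mRNA leaves the small subunit, was the only small-subunit protein of the 17 that passed late. It read 1415 and 1911 at day 0, and 716, 905, 275 and 196 at days 8, 9, 11 and 14 of experiment A, with 697 at day 9 of experiment B. The lowest values were those of the last pair of days, which experiment B did not cover. The change was -1.79 ± 0.49 (3.46-fold lower, adjusted p = 0.0238). The call was lost when day 0 was left out of experiment A (adjusted p = 0.0657) or B (0.236), or day 11 out of A (0.051).

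Among other proteins with a role outside the ribosome, no member probe set passed late. Probe sets that name Rpl5 together with a copy were not members and are given under other observations. Rpl5, which with the 5S RNA binds the p53 inhibitor Mdm2, read 945 and 713 at day 0 and 915, 697, 848, 825 and 489 late (-0.15 ± 0.32, adjusted p = 0.823). Rps3, which sits where mRNA enters and also acts in DNA repair, had changes of 0.14 ± 0.37 and 0.01 ± 0.32 (adjusted p = 0.865 and 1). Rps27l, a p53-responsive paralog of Rps27, had changes of -0.13 ± 0.45 and -0.15 ± 0.58 (adjusted p = 0.904 and 0.922), and its 2 probe sets never read above 649. The paralog Rpl39l was not above the floor on any array, and Rplp1, Rpl11, Rps6, Rps27a and Rpl3l had no probe set with 1 symbol.

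**Figure D3:**
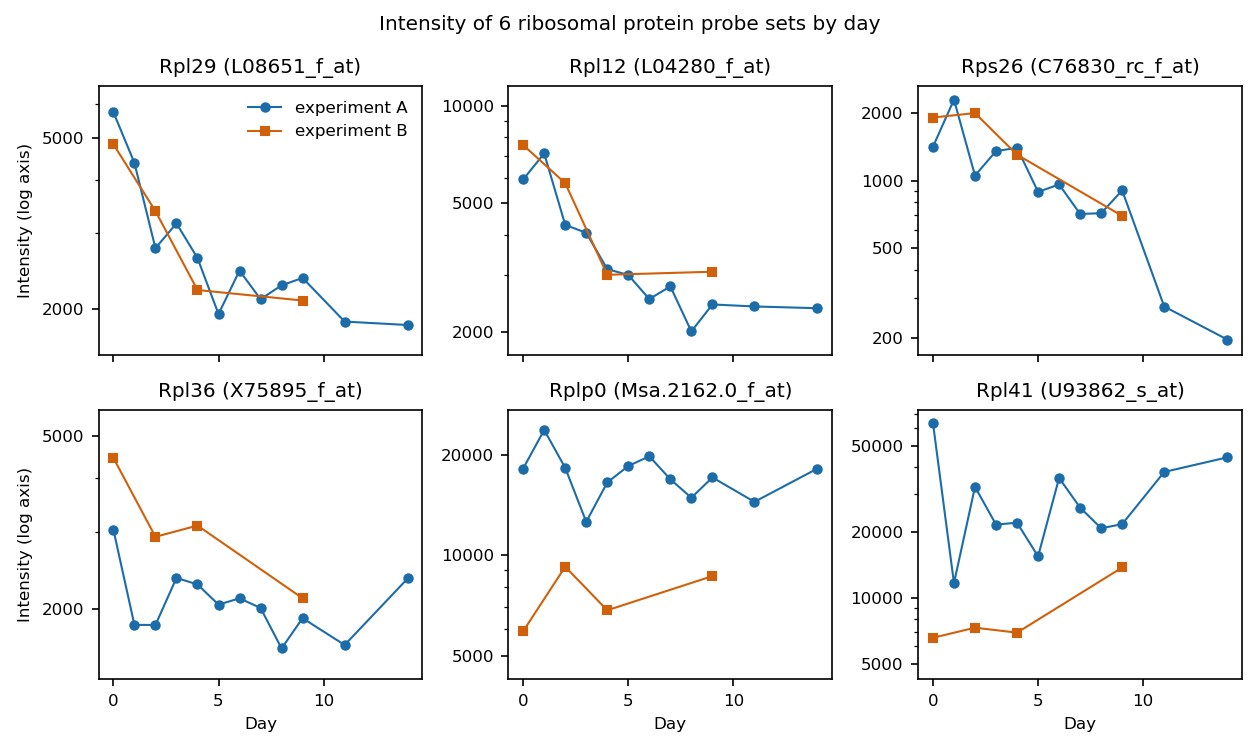
Deposited intensity on a log axis against the day for 6 ribosomal protein probe sets, 1 array per point, with experiment A as circles and experiment B as squares. Rpl29, Rpl12 and Rps26 are lower at day 9 than at day 0 in both experiments, whereas Rpl41 at day 0 reads 63467 in experiment A and 6573 in experiment B.

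The comparison of late with early days was made at a constant 39 °C and compares no array of day 0. It gave 4 members that were lower and none that was higher, where 0.557% of all tested probe sets were lower and 0.984% changed. The median was -0.43 and 43 of 52 were below 0, beside a median of 0.05 for all tested probe sets. Rpl12 fell by 1.08 ± 0.20 (2.12-fold, adjusted p = 0.00924), Rpl13a by 1.61 ± 0.35 (3.05-fold, adjusted p = 0.0264), Rps26 by 1.75 ± 0.39 (3.36-fold, adjusted p = 0.0363) and Rpl10a by 0.87 ± 0.20 (1.83-fold, adjusted p = 0.0371). Early values of Rpl13a were 1950, 1210 and 730 at days 1 to 3 of experiment A and 1680 at day 2 of experiment B. Those of Rps26 were 2296, 1054 and 1354, and 2000 in experiment B. In these 4 genes all late arrays were below all early ones, which held for 11 of the 52 members and for 2.01% of all tested probe sets. Rpl12 kept its call in all 16 fits that left out 1 array. The other three were all lost when day 1, 2, 11 or 14 was left out of experiment A, or day 2 out of B (adjusted p from 0.0585 to 0.184). Rpl10a and Rpl13a were also lost without day 9 of experiment A, Rpl10a and Rps26 without its day 5, and Rpl10a without its day 4 or 7 or day 9 of experiment B. With experiment as a block 11 members were lower (background 1.32%).

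A smooth curve over days, with no borders between phases, called 10 members against 9.73% of all tested probe sets, and 20 with experiment as a block (background 16.1%). Of the 10, 8 were also lower late against day 0. The other two were Rpsa (AA048123_f_at, adjusted p = 0.00751) and Rps15a (adjusted p = 0.0155), a small-subunit protein with a late change of -0.96 ± 0.32 (adjusted p = 0.066), short of the threshold. The smallest adjusted p was that of Rps26 (6.15e-05), followed by Rpl12 (0.000199), Rpl29 (0.000339) and Rpl13a (0.00129). The calls of Rpl8, Rps15a, Rpl22l1 and Rpl7a were each lost without at least 1 array (adjusted p up to 0.158).

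Experiments A and B were compared at the 3 days they share. At day 2, 15 of the 52 members were lower than day 0 in both experiments (median -0.24 in A and 0.05 in B), at day 4 35 were (-0.52 and -0.35), and at day 9 35 were (-0.62 and -0.30). All 10 members called late were lower at day 9 in both, with differences from -1.28 to -0.07 in experiment A and from -1.46 to -0.59 in experiment B. These arrays also entered the late comparison, so this is a description. For Rpl12 the day 9 differences were -1.28 and -1.30, and for Rpl29 -1.28 and -1.21. For Rpl22l1 they were -0.07 and -1.06, so at that day it was lower mainly in experiment B.

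No member differed between the experiments in its late change by the interaction test (limma), in which 1.23% of all tested probe sets passed. At an unadjusted p under 0.05 there were 4 of 52, all of them below 0, beside 513 of all 7726 tested probe sets (289 below 0). The changes of largest size were those of Rpl4 (-2.31 ± 0.71, adjusted p = 0.244), Rpl41 (-2.17 ± 0.91, adjusted p = 0.637) and the design a probe set of Rplp0 (-1.32 ± 0.40, adjusted p = 0.243), each more negative in experiment A. Rpl41, the shortest ribosomal protein, read 63467 at day 0 of experiment A and between 11698 and 44124 on its later days, but 6573, 7311, 6937 and 13801 at days 0, 2, 4 and 9 of experiment B. Experiment B has 1 array per phase, so the spread in this test came from experiment A. A higher floor called Rpl4 and quantile normalization Rpl32-ps, which were at the floor on most arrays.

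Array brightness moved with the experiment, and its part in the members' values was not tested beyond the fit with a covariate given here. Between 4 and 21 of the 36 members on design a, and 6 to 13 of the 16 on design b, reached at least 50% of the brightest probe set on an array of experiment B. In experiment A it was 1 to 8 and 0 to 11. The brightest probe set was itself a member on some arrays of design a, as Rpl41 read 63467 at day 0 of experiment A. These counts are thus partly set by the members. With the level that the brightest 0.5% of each array's probe sets exceed as a covariate, which was added after seeing the data, 11 members were lower in the middle days, 19 late, and 15 late against early. In the same fits 7.88%, 8.81% and 1.99% of all tested probe sets were lower. Rpl41 was then higher late against early, and no member was higher in the other comparisons of phases. Members could themselves exceed the level used as covariate. On design b at day 0 of experiment B that level was 6713, and Rps3 read 7480. The covariate is thus not independent of the members, and the fit cannot separate brightness from their own change.

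Other genes of protein synthesis were counted beside the ribosomal proteins. For each list, the shares of all tested probe sets that were lower stand beside its counts, at 2.05% early, 4.58% in the middle days, 6.08% late and 0.557% late against early. Ribosome biogenesis genes, whose products make rRNA and assemble the subunits, were lower from the first days. Of 48 tested probe sets 13 were lower early, 15 in the middle days and 18 late against day 0, none was higher, and the medians were -0.71, -0.73 and -0.85. Late against early none passed (limma), and 2 had an unadjusted p under 0.05 (1 of them lower). The median was -0.05, beside -0.43 for the ribosomal proteins, a difference that was not tested. Some biogenesis probe sets, those of the genes named next among them, were already at the floor on most early arrays. A further fall cannot show there, so the 2 medians do not compare like with like. Nop56, a core protein of the box C/D particles that guide rRNA methylation, was at least 4.75-fold lower early (adjusted p = 0.000233) and at least 5.59-fold lower late (adjusted p = 2.42e-05), from a mean level of 806 at day 0 to the floor on 3 of 4 early and 4 of 5 late arrays. Eif6, which keeps new large subunits from joining small ones, was at least 4.9-fold lower early (adjusted p = 0.000322) and at least 6.1-fold lower late (adjusted p = 2.81e-05), with 3 of 4 early and all 5 late arrays at the floor. Mphosph10, a factor of small-subunit processing, was at least 1.64-fold lower early (adjusted p = 0.000427) and at least 1.66-fold lower late (adjusted p = 9.08e-05), with as many arrays at the floor. Values set to the floor have no spread of their own, so these p-values can be too small. Without day 0 of experiment B the counts were 6, 10 and 9.

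Genes outside the ribosome whose mRNAs also begin with a TOP motif had 26 tested probe sets, of which 1 was lower early, 4 in the middle days, 5 late and none late against early (limma), where 8 had an unadjusted p under 0.05, 7 of them lower. The medians were -0.12, -0.53, -0.63 and -0.31. Eef1g, a subunit of elongation factor 1, was 2.93-fold lower late (adjusted p = 0.00155). It is also on the list of translation factors, as are Eef1b2 and Eif3h among others, so the counts of these lists are not independent. Nap1l1, a histone chaperone, was 3.31-fold lower on its brighter probe set (adjusted p = 0.00226). With experiment as a block 2 were lower early, 10 late and 1 late against early, where 3.46%, 7.64% and 1.32% of all tested probe sets were. Without day 0 of experiment B 1 was lower late and 0 in the middle days, and without day 2 of experiment A 0 early.

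Initiation and elongation factors had 8 of 45 tested probe sets lower and 2 higher late, 4 and 1 in the middle days, and 2 and 1 early. With the block 8 were lower in the middle days (background 6.42%). Of all 7726 tested probe sets, 374 were higher late, 279 in the middle days and 112 early. As shares, the higher counts of the list are near these. Late against early none passed (limma), and 11 had an unadjusted p under 0.05, 8 of them lower. Eif4a2, an RNA helicase of translation initiation, rose 2.98-fold early (adjusted p = 0.0087) and 4.5-fold late (adjusted p = 0.000175), from a mean level of 1535 at day 0 to 6908 late. Eif2s2, a subunit of the factor that brings the initiator tRNA, was 3.3-fold lower late (adjusted p = 0.00143). Without day 0 of experiment B 2 factors were lower in the middle days and 3 late, and without day 2 of experiment A 0 early.

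Mitochondrial ribosomal proteins, which serve the separate ribosomes of mitochondria, had 33 tested probe sets. Of these 1, 3 and 2 were lower early, middle and late and none late against early (limma; 1 was higher at an unadjusted p under 0.05). As a share of the list, the late count is close to the 6.08% of all tested probe sets. The list had medians of -0.17, -0.13, -0.13 and -0.03. Mrpl15 was at least 1.7-fold lower late (adjusted p = 0.0173), from a mean level of 248 at day 0, as 4 of 5 late arrays were at the floor. Without day 0 of experiment B none was lower late, and without day 1 of experiment A none early or in the middle days.

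**Figure D4:**
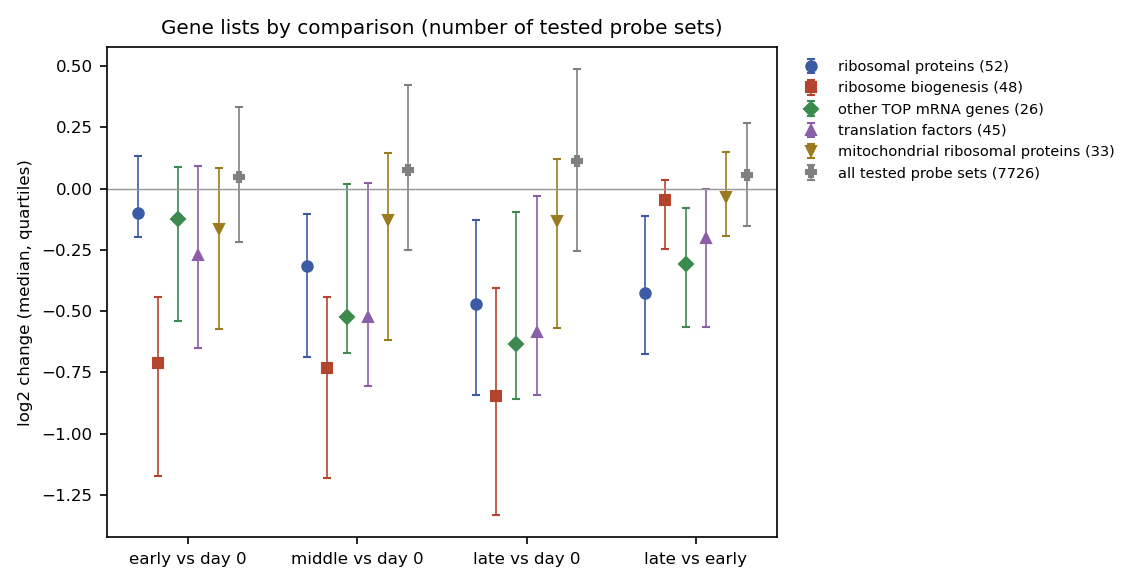
Median log2 change with lower and upper quartile for ribosomal proteins, 4 other gene lists and all tested probe sets, in 4 comparisons, with the number of tested probe sets of each list in the legend. Ribosome biogenesis is at -0.71 early and at -0.05 late against early, whereas ribosomal proteins are at -0.10 early and at -0.43 late against early. Biogenesis probe sets already at the floor in the early days cannot show a further fall.

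Levels of cell type markers moved in the same days. The intensities above the floor of 12 probe sets for 7 mesenchyme genes, added over both designs, came to 6121 to 8031 at day 0 and 9409 to 25412 late, with Col1a2 and Thy1 never above the floor. Its genes did not move together. Decorin (Dcn) had a median of 75 at day 0 and 17561 late, vimentin (Vim) 6275 and 1683, and Twist1 450.5 and 517. The neuron list came to 1261 to 1954 at day 0 and 275 to 530 late, with 1 of its 5 genes on the arrays (Tubb3) above the floor on 8 or more and Map2, Nefm and Snap25 on none. The otic list came to 342 to 1216 at day 0 and 1251 to 2237 late. The blood list overlapped between day 0 (1182 to 2240) and late (1426 to 3979), as did muscle (480 to 2091 and 740 to 2810), glia and melanocyte (663 to 1660 and 855 to 2661) and endothelium (0 to 296 and 0 to 636). The part of these shifts in the ribosomal protein results was not tested.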

How the data were processed

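Total RNA of UB/OC-1 was measured on 32 arrays. The authors deposited intensities as linear whole numbers. Near-equal trimmed means show that they were scaled per array, and of all values 22.9% (design a) and 33.0% (design b) are negative. For software and background correction the labels name no method (not given in the sources used here). Each design held 61 controls, which were left out of the tests. Another 24 ribosomal protein probe sets with several symbols were left out by the rule for members.

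Each design's negative values, taken without sign, gave the floor as their 75th percentile. Models were fitted to log2 intensity in limma (version 3.58.1, R 4.3.3), 1 fit per design, by lmFit and by eBayes with its trend and robust options, with Benjamini-Hochberg adjustment over both designs and a threshold of 0.05, two-sided. All 4 phases shared 1 estimate of the spread (12 residual degrees of freedom, 8 for the interaction). Time courses were tested by the moderated F of a spline in day (natural, 3 degrees of freedom). The number of arrays limits the precision.

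The labels give the experiment of each sample, and differences between experiments A and B correlated between days over probe sets (6 pairs of days, lowest r 0.33, highest 0.70), so the experiment pairs the samples.

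Members named were up to 8 per direction and comparison by adjusted p, the 3 largest changes where none passed, genes whose probe sets disagreed, and genes with set roles; others are said to be named after their values were seen. Of other lists, up to 3 genes per comparison could be named. Members and lists were chosen with earlier results of these data known. Alternatives covered the block, floor, filter, normalization, scale, covariates and each array left out.

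On simulated data, late against day 0 recovered 31% of 100 changes of 1 log2 unit and 88% of 100 changes of 2, with 9 false of 128 calls over 7692 probe sets. Only bright probe sets were changed, and no difference between experiments was simulated. In the data 844 of 7726 passed, so the adjusted threshold differed and these rates need not hold there.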

Additional observations from a re-analysis of the deposited data

Results flagged for a closer look

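Within phases, 84 groups of arrays were checked for 1 array apart from the others, and 8 had one, where chance gives about 1 in 20. Log2 intensities are given. In the early days, Rpl36 on design a was low at day 2 of experiment A (9.997, an intensity of 1022, with the next at 11.08). Rpl5 was low at day 1 of experiment A (9.03, intensity 524, next 9.58), and Rpl4 was high there (7.98, intensity 253) while its other early arrays were at the floor. In the middle days, 3 arrays apart were those of day 4 of experiment B. Rplp0 on design b (the probe set with a late change of 0.45) was low at 12.74 (intensity 6833, next 14.01), and the median of the design b members was low at 12.66 (next 13.21). Rpl36 on design b was high at 11.6 (intensity 3112, next 11.15). In the late days, both were at day 9 of experiment B, with Rpsa (C78471_rc_f_at) low at 12.04 (intensity 4204, next 12.43) and Rpl4 high at 8.15 (intensity 285), its other late arrays being at the floor. Of the 8, 5 were thus arrays of experiment B, each the 1 array of that experiment in its phase.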

How the results depend on the processing

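With experiment as a replicate block, the counts of lower members were 8 in the middle days, 17 late and 11 late against early, with 20 in the time course, and all calls made without it remained. Among other lists it gave 2 TOP genes early, 10 late and 1 late against early, 2 mitochondrial ribosomal proteins early, and 8 translation factors in the middle days. In the block fits 3.46% of all tested probe sets were lower early, 6.42% in the middle days and 7.64% late. Without a filter, 2 were lower in the middle days, 5 late and 1 late against early. Experiment A alone gave a late median of -0.80 and 2 lower late against early. The noise covariate gave 8 in the middle days and 8 late against early, and the Gapdh covariate 9 late against early. The brightness covariate, chosen after seeing the data and not independent of the members, gave 11, 19 and 15 lower, 1 higher late against early, and 22 in the time course. The share of all tested probe sets also moved with the setting. Late against early, 0.557% were lower without block or covariate, 1.32% with the block and 1.99% with the brightness covariate. No such share is given for the other settings or for the 22, so those counts may reflect the fit rather than the members. A higher floor and quantile normalization each called 1 interaction. The 3 members with plain probe set names alone (Rpl10, Rpl32-ps and 1 probe set of Rps27l) gave no call (0 in the middle days, late, late against early and in the time course). Their medians were 0 early, -0.13 late and 0.026 late against early. The 0 is the value of Rpl32-ps, which was at the floor on all day 0 and early arrays, so these fits say little about the f_at probe sets. Day 9 medians under quantile normalization were -0.38 (experiment A, design a) and -0.46 (experiment B, design b), beside -0.73 and -0.03 in the deposited values. Design b members were then lower at day 9 in both experiments, whereas median scaling gave a design b median of -0.10 for experiment B. The middle change of Rpsa (j02870_s_at) was 0.19 with a higher floor, 0.32 in experiment A alone, 0.025 and 0.23 with the noise and brightness covariates, and from -0.17 to 0.24 without 1 array (above 0 at 0.035, 0.058 and 0.24). The cause of these shifts was not tested. Without 1 array in turn, the early median ranged from -0.29 to 0.17 with 0 calls, and the middle count from 2 to 4 (median -0.56 to -0.048). The late count was 6 without day 0 of experiment A and ranged from 4 (without day 0 of experiment B) to 12 (without its day 9), with a median from -0.73 to -0.17. Late against early it ranged from 1 (without day 1 of experiment A) to 5 (median -0.51 to -0.31), and the time course from 7 (without day 14) to 12. With 2 arrays at day 0, a change of 1 log2 unit was recovered in 31% of simulated cases late against day 0. The simulation held fewer changed probe sets than passed in the data, so its rate need not hold for them. Members without a call may still have changed.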

Other observations

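Ribosomal protein probe sets with several symbols, among them genes listed with their pseudogenes, were not among the members, and 23 were tested. Late against day 0, 5 were lower and none was higher, where 6.08% of all tested probe sets were lower. The median was -0.59 with 20 of 23 below 0, beside 0.11 for all tested probe sets. In the middle days 1 was lower, which as a share is close to the 4.58% of all tested probe sets. Early none was lower (limma), where 2.05% of all were, and 1 was higher at an unadjusted p under 0.05. Late against early none passed, where 0.557% of all were lower, and 7 were lower at an unadjusted p under 0.05. The time course called 4, against 9.73% of all. The 5 called late name Rps2 (2.19-fold lower, adjusted p = 0.0291), Rpl30 (1.77-fold, adjusted p = 0.0301), Rps26 (1.85-fold, adjusted p = 0.0323), Rps13 (2.02-fold, adjusted p = 0.0374) and Rpl5 (1.69-fold, adjusted p = 0.0457). Rps2 and Rps13 are small-subunit proteins and Rpl30 is one of the large subunit. The probe set that Rps26 shares with a predicted gene had a mean level of 6858 at day 0 and 3706 late. For Rpl5, 1 probe set shared with Rpl5-ps2 passed late where the member probe set with Rpl5 alone was at -0.15. Another one shared with Rpl5-ps2 was called in the time course (limma F-test, adjusted p = 0.0131) but not late. These genes are named after their values were seen, and their probe sets do not tell the gene from its copies.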
